A study of Mus musculus with 70 samples.

Results

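The p53 response is described here through 33 mouse genes, taken as the rows of the deposited expression table whose symbol is 1 of a list of p53 and its known targets. All 33 were found, out of 21859 genes in the table. By role, 5 are p53 and its regulators (Trp53, Mdm2, Ccng1, Pml and Trp53inp1) and 8 are death genes of the mitochondrial and caspase route (Bax, Bbc3, Pmaip1, Apaf1, Pidd1, Perp, Ei24 and Aen). A further 3 are death receptors (Fas, Tnfrsf10b and Eda2r) and 7 act in arrest and growth control (Btg2, Plk2, Plk3, Sesn1, Phlda3, Zmat3 and Ckap2). The rest are 5 genes of DNA repair and nucleotide supply (Ddb2, Xpc, Polk, Rrm2b and Ercc5) and 5 of metabolism and other functions (Tigar, Dcxr, Ak1, Rps27l and Ninj1). p53, encoded by Trp53, is a transcription factor that is held low by the ubiquitin ligase Mdm2 and accumulates, mostly as protein, when cells are stressed or damaged. It binds a response element made of a pair of half-sites, and its targets stop the cell cycle, repair DNA, adjust metabolism or set off apoptosis. In senescent cells p53 is known for holding the arrest through the cyclin-dependent kinase inhibitor Cdkn1a, while in liver and gut epithelium it is known for guarding against damage.

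The 70 libraries came from male C57BL/6 mice and fell into 26 groups in 3 tissues. The study asked how cells with an active kinase, and the cells around them, change when they enter senescence. Doxycycline switched on either caMEK1, which activates ERK (oncogene-induced senescence), or caMKK6, which activates p38 (stress-induced senescence). Mouse embryonic fibroblasts (MEFs, from E13.5 embryos) of each kinase genotype were sampled in 3 libraries per group, untreated at day 2 or with 2 µg/mL doxycycline at day 2, 4 or 7. All 3 days were compared with the same untreated day 2 libraries of the genotype, so days spent in culture cannot be told apart from the drug at days 4 and 7. No MEF group lacked a kinase transgene, so at every day the kinase cannot be told apart from doxycycline itself. In mice made as chimeras with cells of both colours, mCherry marked the kinase-carrying cells and GFP the surrounding ones, and hepatocytes and colon epithelial cells were sorted by colour. Tissue libraries came from mice with no doxycycline (GFP cells) and from mice at day 7 of doxycycline (both colours) of the caMEK1, caMKK6 and Control genotypes, the last carrying the colours without a kinase. The caMEK1 mice drank doxycycline at 0.2 mg/mL, and the Control and caMKK6 mice at 2 mg/mL, so the kinases are compared at unequal doses. Tissue groups held 3 libraries, except for Control with doxycycline in both tissues, caMKK6 liver with doxycycline and caMEK1 colon with doxycycline, which held 2 per colour. The promoter that drives the kinases is not given in the sources used here. The MEF libraries carry a replicate tag that the labels do not explain, and whether they came from separate cultures is not given in the sources used here, so p-values there measure only the spread between these libraries, which may be technical. Tissue libraries carry animal numbers.

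Reads in genes, recovered from the expression values, ranged from 10888915 to 17763531 in MEF, 9267318 to 14534256 in liver and 6671204 to 17396973 in colon libraries. The frog MEK1 transgene stood at 460 to 1169 FPKM in caMEK1 MEFs with doxycycline, at 235 and 288 in caMEK1 mCherry colon cells and at 5.55 to 14.1 in caMEK1 mCherry hepatocytes. FPKM are fragments per kilobase of exon, scaled to the library's reads, a level per length that can be set side by side between genes. The mCherry RNA of those hepatocytes was also low, at 4.24 to 12.2 FPKM against 3985 and 4727 in Control mCherry hepatocytes. Control GFP hepatocytes with doxycycline listed mCherry at 678 and 750 FPKM, against at most 0.112 in untreated Control ones. In colon, mCherry stood at 217 and 285 FPKM in caMEK1 mCherry cells and at 11920 and 14438 in Control ones. In caMEK1 hepatocytes with doxycycline, EGFP stood at 1.28 to 6.81 FPKM in mCherry cells and 12.6 to 56.4 in GFP cells. Frog MEK1 stood at 0.133 to 0.238 FPKM in those GFP cells. Whether the lower dose of the caMEK1 mice, the sort or the labels account for these reporter levels cannot be told apart and was not tested. This puts in doubt the liver comparisons that use caMEK1 mCherry or Control GFP cells with doxycycline. They are given as labelled, since whole groups are concerned and no fit without them was possible. The human MKK6 transgene stood at 130 to 1209 FPKM in caMKK6 MEFs with doxycycline, at 216 and 1211 FPKM in caMKK6 mCherry hepatocytes and at 1214 to 2648 in caMKK6 mCherry colon cells. Of the 12 caMKK6 MEF libraries, 5 also listed frog MEK1 above 5 FPKM. Summed hepatocyte markers stood at 26908 to 100876 FPKM in liver and colon epithelial markers at 2278 to 6697 FPKM in colon libraries, while fibroblast markers stood at 223 to 1692 FPKM in MEFs. In bulk samples, fewer cells of a type and less RNA per cell cannot be told apart.

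Promoter sequences are shown because p53 binds DNA at its response element. RefSeq windows of mouse build GRCm38.p6, reaching from 250 bases before to 50 after the gene start, were found for 25 of the 33 genes. Each was searched on both strands for the p53 response element, with its pair of half-sites adjacent and the core C and G of each half-site required. At most 1 mismatch was left by 2 of the 25 genes (8.00%), Ccng1 and Rps27l, against 22 of 27025 genes (0.0814%). At most 3 mismatches were left by 8 of the 25 (32.0%), against 441 of all genes (1.63%). Besides Ccng1 and Rps27l these were Ckap2, Aen, Bbc3, Sesn1, Tigar and Trp53. The genes had been listed as p53 targets, so this share describes the list. A match is not a site, and no match says only that the letters are not in the window.

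Of these, 4 genes on which results below turn are printed 5′ to 3′ on the gene's own strand, with the matching 20 bases in capitals. For Ccng1 (cyclin G1, a feedback partner of p53), Ckap2 (a spindle protein) and Trp53 they are the 250 bases before the start. For Aen (a nuclease that takes part in apoptosis) only the element is shown, since it lies after the start. In the same order they lie at chr11:40755287-40755536 (minus strand, 1 mismatch), chr8:22185820-22186069 (minus strand, 2 mismatches), chr11:69580109-69580358 (plus strand, 3 mismatches) and chr7:78895937-78895956 (plus strand, 3 mismatches).
Ccng1: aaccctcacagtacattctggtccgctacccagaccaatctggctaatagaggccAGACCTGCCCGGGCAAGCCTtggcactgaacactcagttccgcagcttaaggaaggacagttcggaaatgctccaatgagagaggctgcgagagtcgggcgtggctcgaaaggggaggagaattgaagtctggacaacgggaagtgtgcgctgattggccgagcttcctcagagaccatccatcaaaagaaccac
Ckap2: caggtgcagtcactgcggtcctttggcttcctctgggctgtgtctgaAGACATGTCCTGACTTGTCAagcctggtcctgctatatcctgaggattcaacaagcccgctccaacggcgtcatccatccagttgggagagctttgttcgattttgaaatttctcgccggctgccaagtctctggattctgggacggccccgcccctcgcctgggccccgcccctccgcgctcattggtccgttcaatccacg
Trp53: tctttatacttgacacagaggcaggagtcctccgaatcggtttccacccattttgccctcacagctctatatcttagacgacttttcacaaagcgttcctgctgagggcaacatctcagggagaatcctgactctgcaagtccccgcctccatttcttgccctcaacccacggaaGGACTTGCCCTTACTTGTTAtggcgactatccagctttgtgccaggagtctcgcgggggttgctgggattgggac
Aen: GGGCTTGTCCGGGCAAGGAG

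Without doxycycline, every one of 6 MEF libraries lay above every one of 9 colon libraries for 22 of the 33 genes, beside 33.7% of the 13643 genes compared. MEF libraries all lay above liver libraries for 23 of the 33, beside 59.4% of genes, and colon above liver for 20, beside 59.9%, shares that are near those of all genes. The size of the gap varied, and Ei24 had medians of 42.2 FPKM in MEFs and 32 in liver. Phlda3, an inhibitor of Akt signalling, was far apart, and ranged from 174 to 192 FPKM (median 176) in MEFs, from 0 to 0.163 (median 0.0545) in liver and from 0.636 to 2.26 (median 1.13) in colon. Ak1, an adenylate kinase, stood at 85.8 to 94.2 FPKM (median 86.5) in MEFs and at most 0.0656 in liver and 0.776 in colon. Neither range touched the other tissues'.

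Of the 5 regulators, 4 were highest in MEFs and lowest in liver. Among untreated libraries, Trp53 itself was highest in MEFs, with a range of 37.8 to 45.1 FPKM (median 42.5). Its range was 19.2 to 24.4 FPKM (median 19.9) in untreated colon cells and 3.07 to 4.93 (median 3.9) in untreated hepatocytes. Mdm2, the ligase that degrades p53, had medians of 108 FPKM in MEFs, 8.43 in colon and 5.06 in liver, and the 3 ranges did not overlap. Ccng1 was the most abundant member in MEFs, at 407 to 554 FPKM, against 36.7 to 54.6 in colon and 6.95 to 9.01 in liver. Trp53inp1, a stress-induced partner of p53, was the exception, since its liver range of 7.24 to 23 FPKM overlapped the MEF range of 12.7 to 22.4 and the colon range of 9.46 to 15.5.

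Most death genes were higher in MEFs, with Perp, Pmaip1 and Fas as exceptions. Bax, a pore-forming protein of mitochondria, had medians of 116 FPKM in MEFs, 12.7 in colon and 3.31 in liver. The death receptor Tnfrsf10b had medians of 19.1, 4.45 and 0.0779 FPKM in the same order. Perp, a desmosome protein linked to apoptosis, ran the other way, at 82.4 to 104 FPKM in colon, 36 to 54.9 in liver and 11.3 to 57.5 in MEFs, and only the last 2 overlapped. Pmaip1, a BH3-only death gene, was alike in MEFs and colon, with overlapping ranges of 5.54 to 29.7 and 10.7 to 27.9 FPKM, and at most 0.279 in liver. Fas overlapped between MEFs (4.5 to 9.23 FPKM) and liver (5.57 to 7.36), and was lower in colon (1.87 to 3.63).

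Only 5 genes had every colon library above every MEF library, beside 33.2% of all genes. They were Perp, the antiproliferative gene Btg2, the repair genes Ddb2 and Xpc, and Sesn1, a stress-induced brake on mTORC1. Btg2 ranged from 124 to 343 FPKM in colon, 29.2 to 44.6 in MEFs and 3.53 to 52.8 in liver. Liver libraries lay above all MEF libraries for Xpc and Ninj1, beside 17.4% of genes, and above all colon libraries for Fas, Ninj1 and Ei24, beside 12.3%. Ninj1, which takes part in rupture of the plasma membrane, ranged from 49.9 to 70.2 FPKM in liver, 17 to 21.6 in MEFs and 11.4 to 19.5 in colon. Tissue and culture differ in cell type, RNA input and preparation, which cannot be told apart here, and no test was made of these levels.

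**Figure D1:**
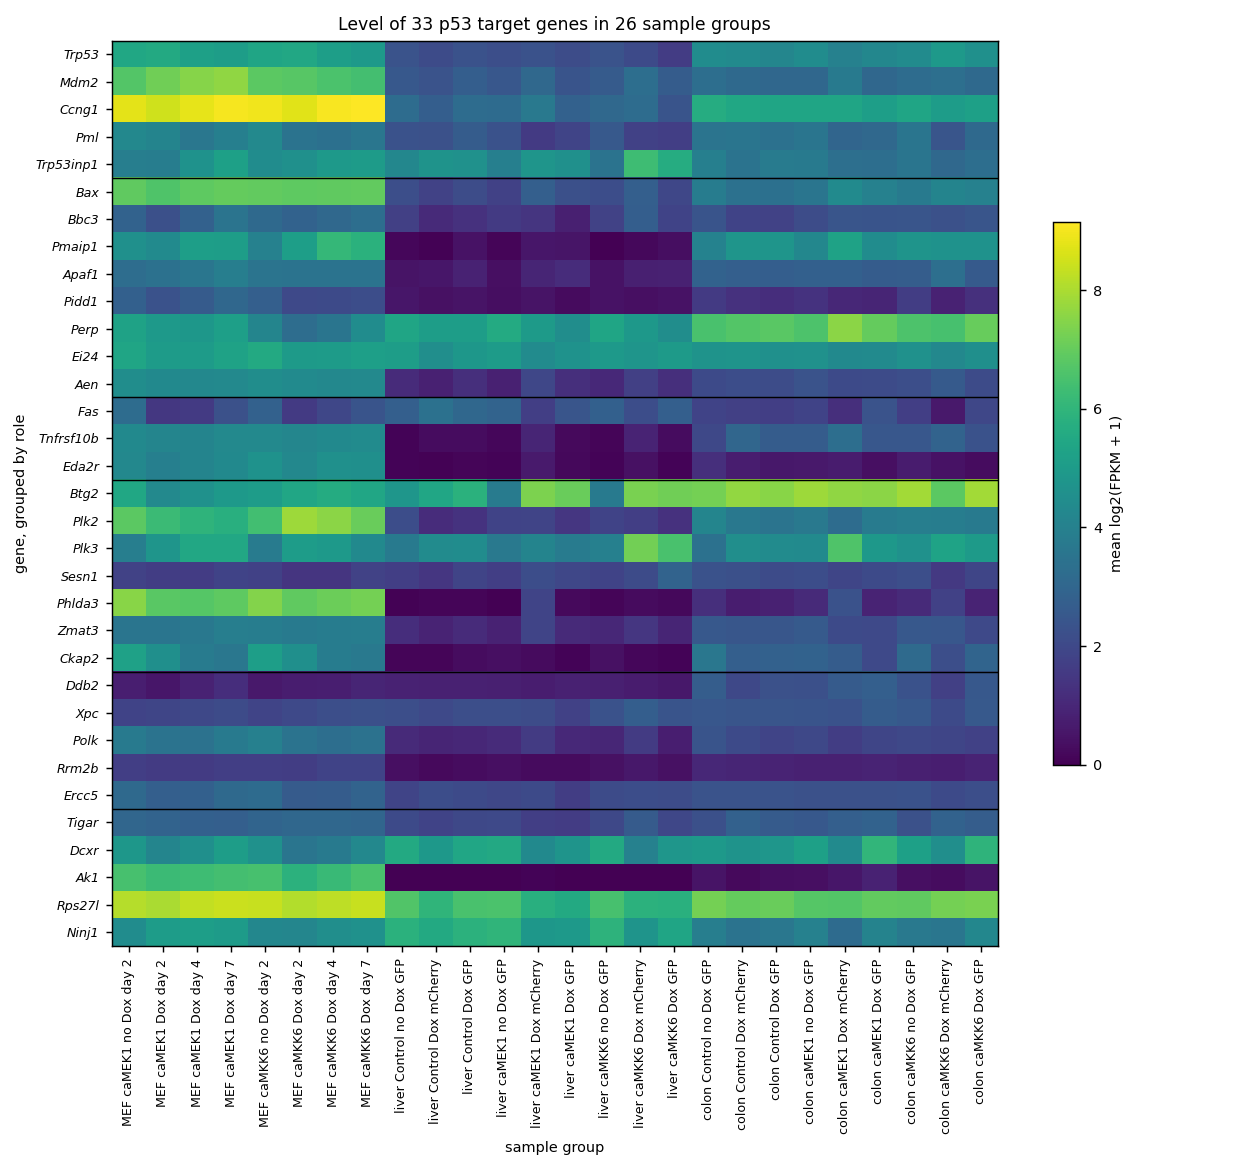
Mean level of the 33 genes (rows, grouped by role) in the 26 sample groups (columns), as mean log2(FPKM + 1) by colour. Ccng1, Phlda3 and Ak1 are brighter in every MEF column than in any liver or colon column. Phlda3 is dark in every liver group except caMEK1 mCherry with doxycycline.

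In caMEK1 MEFs, Mdm2 and the stress kinase Plk3 rose at every time, while the death receptor Fas, the kinase Plk2, Btg2, Phlda3 and the spindle gene Ckap2 fell at every time. The p53 target genes therefore did not move as 1 block. The test was limma on log2(FPKM + 1), with a call at a Benjamini-Hochberg adjusted p below 0.05 over all 11347 genes tested. Its fold changes are on the log2(FPKM + 1) scale, which understates the change of low genes. At day 2, 3 of the 33 rose, beside 19.5% of all genes, and 15 fell, beside 19.8% (39.3% in either direction). At day 4, 5 rose, beside 28.5%, and 12 fell, beside 29.3% (57.8% together). At day 7, 10 rose, beside 33.4%, and 7 fell, beside 28.7% (62.1% together). The median log2 change of the 33 was -0.22, -0.17 and 0.01 in turn, beside -0.01, -0.01 and 0.03 over all genes tested. With each library scaled to a common median the day 7 split became 7 higher and 10 lower, and with quantile normalization 7 and 9. With the replicate number as a block within each genotype, further members were called. Perp (-0.34 and -0.45 on the log2 scale, limma adjusted p = 0.042 and 0.0067) was then lower at days 2 and 4, Tnfrsf10b at day 2, Eda2r at day 4, Tigar at days 4 and 7 and Pml at day 7. Pmaip1 (0.54 and 0.52, adjusted p = 0.006 and 0.007) was then higher at days 4 and 7, and Pidd1 at day 7.

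Mdm2 stood at 103, 95.8 and 112 FPKM without doxycycline, at 136, 140 and 148 at day 2, at 180, 180 and 176 at day 4 and at 216, 198 and 183 at day 7. Every doxycycline library lay above every untreated one. The log2 change was 0.45 ± 0.08 (SE, n = 3 against 3, limma adjusted p = 0.00014) at day 2 and 0.93 ± 0.08 (adjusted p = 4.5e-09) at day 7. Trp53, which encodes p53, stood at 43, 42.9 and 42.1 FPKM untreated and at 47.8, 45.3 and 45.8 at day 2, a difference that was not called (0.12 ± 0.07, limma adjusted p = 0.23). It fell later, to 37.5, 35.3 and 35.6 FPKM at day 4 and 33.4, 33.8 and 32.4 at day 7. Its log2 change at day 7 was -0.35 ± 0.07 (limma adjusted p = 0.00031), and the libraries of both days lay below all untreated ones. Trp53inp1 was at 12.7, 13.4 and 16.6 FPKM untreated, at 25.4, 24.6 and 22.3 at day 4 and at 38.4, 38.3 and 31.8 at day 7, with no overlap. Its day 7 log2 change of 1.29 ± 0.10 (limma adjusted p = 2.4e-09) followed a day 2 level that did not pass the test. Pml, the scaffold of nuclear bodies, fell at day 4, from 17.5, 19.4 and 18.8 to 11.6, 11.7 and 11.2 FPKM (log2 change -0.64 ± 0.15, limma adjusted p = 0.00082). Ccng1 was called lower at day 2 (355, 366 and 364 against 423, 407 and 495 FPKM) and higher at day 7 (526, 505 and 525 FPKM), with no overlap at either time. The day 7 call of Ccng1 was lost with median scaling (limma adjusted p = 0.069), with quantile normalization (log2 change 0.08, adjusted p = 0.38) and without the second untreated library (adjusted p = 0.067).

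Of the 8 death genes of mitochondria and caspases, 4 fell and none rose at day 2, beside 19.8% and 19.5% of all genes. At day 4, 2 fell and 1 rose, beside 29.3% and 28.5%. At day 7, 1 fell and 2 rose, beside 28.7% and 33.4%. Bbc3, which encodes the BH3-only protein PUMA, was at 6.78, 6 and 6.17 FPKM untreated, 3.47, 3.46 and 4.12 at day 2 and 10.3, 11.3 and 9.63 at day 7. It was thus below all untreated libraries at day 2 (log2 change -0.65 ± 0.12, limma adjusted p = 0.00015) and above them at day 7 (0.64 ± 0.12, adjusted p = 7.7e-05). Apaf1, the core of the apoptosome, stood at 8.51, 8.72 and 8.98 FPKM untreated and at 13.5, 15 and 13.3 at day 7, with no overlap (log2 change 0.62 ± 0.06, limma adjusted p = 3.9e-08). Bax, Pidd1 and Ei24 were called lower at day 2, with log2 changes of -0.29, -0.50 and -0.33, and Ei24 also at day 4 (-0.34). Aen was called lower at days 4 and 7, by -0.19 and -0.17 on the log2 scale. Bax shares 12.2% of its exon bases with a gene on the same strand, so its reads may not be its own alone. Perp stood at 28.3, 33.7 and 57.5 FPKM untreated, at 18.8, 29.8 and 46.7 at day 2, at 17.4, 26.1 and 45.5 at day 4 and at 23.2, 30.1 and 60.9 at day 7. The groups overlapped, while at days 2 and 4 each library lay below the untreated one of its number; the calls at both days appeared only with the block within genotype.

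Fas, the death receptor that binds Fas ligand, showed the largest falls at days 2 and 4. It stood at 7.61, 8.44 and 9.23 FPKM untreated, at 1.69, 1.96 and 1.8 at day 2, at 1.86, 1.76 and 2.3 at day 4 and at 4.58, 3.64 and 3.4 at day 7. All doxycycline libraries lay below all untreated ones, with log2 changes of -1.74 ± 0.24 at day 2 and -0.96 ± 0.24 at day 7 (limma adjusted p = 7.4e-06 and 0.0017).

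Among the arrest genes, 2 polo-like kinases went opposite ways. Plk3 stood at 12.9, 14.8 and 14.6 FPKM untreated, at 25.4, 26.4 and 27.1 at day 2 and at 45.5, 41.1 and 44.5 at day 7. The day 7 log2 change was 1.56 ± 0.16 (limma adjusted p = 8.4e-08). Plk2, which acts in centriole duplication, was at 115, 111 and 118 FPKM untreated and at 51.3, 48.2 and 64.9 at day 7 (log2 change -1.06 ± 0.17, limma adjusted p = 1.5e-05). Neither kinase overlapped between untreated and doxycycline libraries at any time. Btg2 was lowest at day 2, at 16.9, 20.3 and 19.3 FPKM against 43.1, 44.6 and 41.9 untreated (log2 change -1.16 ± 0.09, limma adjusted p = 4e-09), and at 27.4, 30.4 and 30.7 at day 7. Phlda3 went from 183, 174 and 192 FPKM to 113, 101 and 122 at day 2 and 116, 103 and 132 at day 7, below every untreated library (day 7 log2 change -0.64 ± 0.11, limma adjusted p = 2.9e-05). Ckap2 was at 39, 35.7 and 34.8 FPKM untreated and at 12.4, 13.3 and 8.64 at day 7 (log2 change -1.61 ± 0.16, limma adjusted p = 3.3e-08).

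Of the 5 repair genes 2 fell at day 2, beside 19.8% of all genes. Of the 5 genes of metabolism and other functions 2 fell and 1 rose at day 2, beside 19.8% and 19.5%. Polk, a polymerase that copies past lesions, and Ercc5, a nuclease of nucleotide excision repair, were lower at days 2 and 4, with log2 changes from -0.34 to -0.26. Ddb2, a sensor of ultraviolet lesions, and Xpc were higher at day 7, with log2 changes of 0.42 and 0.24. Both calls were lost under quantile normalization, with limma adjusted p of 0.19 and 0.07. Ddb2 passed the filter of 1 FPKM in only 5 of the 24 MEF libraries, 3 of them of this group. Its call, which is counted among the day 7 rises, therefore follows in part from the filter. Ddb2 also shares 23.8% of its exon bases with a gene on the opposite strand, and whether reads were counted by strand is not given in the sources used here. Ninj1 stood at 21.4, 20.1 and 21.6 FPKM untreated and rose at all times, to 31.3, 33.3 and 31.3 at day 2 (log2 change 0.58 ± 0.08, limma adjusted p = 7.8e-06). Dcxr, a xylulose reductase, fell at day 2 from 24.3, 27.8 and 31.4 to 16.4, 16.1 and 18.5 FPKM (log2 change -0.67 ± 0.20, limma adjusted p = 0.012), a call lost without the third untreated library (adjusted p = 0.055). Fibroblast markers, summed over 7 genes, ranged from 223 to 433 FPKM in caMEK1 MEFs with doxycycline and from 1006 to 1309 without; their part in these results was not tested. Tnfrsf10b was called lower at day 4 (14.9, 15.4 and 18.9 against 18.6, 18.7 and 20.7 FPKM, overlapping), a call lost with the replicate number as a block (limma adjusted p = 0.055).

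In caMKK6 MEFs Mdm2 fell at days 4 and 7, while Plk2, Plk3, Btg2 and Pmaip1 rose at all 3 times. At day 2, 4 of the 33 rose, beside 14.3% of all genes, and 13 fell, beside 24.8% (39.2% in either direction). At day 4, 7 rose, beside 17.1%, and 14 fell, beside 27.7% (44.8% together). At day 7, 7 rose, beside 16.8%, and 8 fell, beside 24% (40.8% together). The median log2 change was -0.13, -0.06 and 0.02, beside -0.06, -0.06 and -0.04 over all genes. Without the 5 caMKK6 libraries that list frog MEK1, the day 4 counts were 4 higher and 9 lower, and the day 7 calls of Plk2, Btg2 and Plk3 (limma adjusted p = 0.087, 0.071 and 0.1) and the day 2 calls of Btg2, Pmaip1 and Ckap2 (adjusted p = 0.56, 0.16 and 0.13) were lost. With the replicate number as a block across genotypes Perp was also called at day 2 (log2 change -0.90 ± 0.35, limma adjusted p = 0.049). At day 7 Ccng1, Fas, Phlda3 and Ercc5 were then called (adjusted p = 0.03, 0.048, 0.012 and 0.027). With the block within each genotype these calls also appeared, and Perp was lower at days 2 and 4. Its log2 changes were then -0.90 ± 0.13 and -0.60 ± 0.13 (limma adjusted p = 3.8e-05 and 0.0012).

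Mdm2 stood at 119, 99.7 and 122 FPKM untreated, at 92.5, 89.4 and 96 at day 4 and at 90.2, 80.6 and 82.1 at day 7. Its libraries of days 4 and 7 lay below all untreated ones, with a day 7 log2 change of -0.42 ± 0.08 (limma adjusted p = 0.0003). Trp53 was at 37.8, 45.1 and 39.8 FPKM untreated and at 26.5, 32.5 and 29.8 at day 7, again below all of them (log2 change -0.46 ± 0.07, limma adjusted p = 6e-05). Both p53 and its ligase were thus lower in RNA at day 7 of caMKK6. Pml fell to 10.4, 8.89 and 11.8 FPKM at day 2, from 19.8, 17.9 and 18.9 (log2 change -0.82 ± 0.15, limma adjusted p = 0.00027). Trp53inp1 rose from 20.7, 20 and 22.4 to 29.5, 33.7 and 32 FPKM at day 7 (log2 change 0.57 ± 0.10, limma adjusted p = 0.00026).

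Pmaip1, which encodes the BH3-only protein NOXA, had the largest rise at days 4 and 7. It stood at 21.9, 5.54 and 27 FPKM untreated, at 79.2, 43.2 and 86.1 at day 4 and at 68.8, 38 and 69.8 at day 7, so the second replicate was lowest at each time. The day 4 and day 7 log2 changes were 2.07 ± 0.44 and 1.84 ± 0.44 (limma adjusted p = 0.00083 and 0.0024), and the groups did not overlap. At day 2, at 42.1, 18.1 and 52.3 FPKM, the libraries overlapped the untreated ones. Pidd1, a scaffold for caspase activation, fell to 2.52, 2.91 and 3.71 FPKM at day 2 from 6.28, 4.55 and 6.58 (log2 change -0.75 ± 0.15, limma adjusted p = 0.00093), and its day 7 values overlapped the untreated ones. Ei24, a protein of the endoplasmic reticulum, was at 46.2, 43.1 and 47.9 FPKM untreated and was lower at every time, by -0.56, -0.53 and -0.38 on the log2 scale.

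Plk2 stood at 89.1, 70.3 and 88.8 FPKM untreated, at 237, 235 and 203 at day 2, at 199, 222 and 151 at day 4 and at 127, 182 and 104 at day 7. Every doxycycline library was above every untreated one, and the log2 change was 1.43 ± 0.17 at day 2 and 0.70 ± 0.17 at day 7 (limma adjusted p = 3.7e-06 and 0.0023), the latter lost without the libraries that list frog MEK1. Plk3 went from 13.3, 11.4 and 14.4 to 33.2, 36.4 and 28.6 FPKM at day 2 (log2 change 1.27 ± 0.16, limma adjusted p = 1.2e-05). Its day 7 call was lost without the second doxycycline replicate (limma adjusted p = 0.13). Btg2 was at 33.5, 29.2 and 35.4 FPKM untreated and at 44.6, 50.5 and 51.3 at day 4 (log2 change 0.57 ± 0.09, limma adjusted p = 6.5e-05). Ckap2 fell from 31.6, 35.8 and 34.6 to 12.3, 9.39 and 15.1 FPKM at day 7, with no overlap (log2 change -1.42 ± 0.16, limma adjusted p = 1.1e-06).

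Fas was also low at day 2 of caMKK6, at 1.47, 1.81 and 2.53 FPKM against 6.24, 4.5 and 8.5 untreated (log2 change -1.32 ± 0.24, limma adjusted p = 0.00031). By day 7 it stood at 4.51, 2.52 and 6.17 FPKM, overlapped the untreated libraries and was not called. Dcxr was at 27, 20.8 and 24.4 FPKM untreated and at 10.2, 10.3 and 12.2 at day 2 (log2 change -1.07 ± 0.20, limma adjusted p = 0.00043). Ak1 fell at day 2 from 86.2, 92.3 and 85.8 to 56.3, 56 and 62.3 FPKM, below all untreated libraries (log2 change -0.59 ± 0.09, limma adjusted p = 7.3e-05). Polk was at 17.6, 12.9 and 14.4 FPKM untreated and at 9.24, 8.19 and 9.31 at day 4 (log2 change -0.68 ± 0.09, limma adjusted p = 6.4e-06).

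The change at day 7 was then compared directly between kinases, as the caMEK1 change minus the caMKK6 change. It was higher for 8 of the 33 genes, beside 23.3% of all genes, and lower for 3, beside 14.5% (37.8% in either direction), with a median of 0.10 beside 0.07 over all genes. Of these calls Phlda3 (-0.41) was lost without a filter and with quantile normalization (limma adjusted p = 0.051 and 0.085), Bbc3 (0.47) with median scaling, quantile normalization and voom (adjusted p = 0.094, 0.066 and 0.077), and Ei24 (0.29) with median scaling (0.16, adjusted p = 0.2). Each was also lost without one or other of several single libraries. With the replicate number as a block within each genotype, 11 were higher and 6 lower. Pmaip1 was then among the lower ones (-1.32 ± 0.22, limma adjusted p = 0.00011). Mdm2 had the widest of the positive differences, 1.35 ± 0.11 on the log2 scale (limma adjusted p = 1.2e-08), since it rose under caMEK1 and fell under caMKK6. Plk2 had the widest of all, in the other direction, at -1.76 ± 0.23 (limma adjusted p = 7e-06), since it fell under caMEK1 and rose under caMKK6. Btg2 also crossed over, with a difference of -0.88 ± 0.13 (limma adjusted p = 2.4e-05). Plk3 and Trp53inp1 rose under both and rose more under caMEK1, by 1.04 ± 0.23 and 0.72 ± 0.15 (limma adjusted p = 0.0014 and 0.00072). For Trp53inp1 the day 7 levels of the kinases overlapped, at 38.4, 38.3 and 31.8 FPKM in caMEK1 and 29.5, 33.7 and 32 in caMKK6. Its untreated levels did not overlap, and were lower in caMEK1 (12.7, 13.4 and 16.6 FPKM) than in caMKK6 (20.7, 20 and 22.4). Apaf1 differed by 0.66 ± 0.09 (limma adjusted p = 5.1e-06), and went from 11.7, 10 and 9.97 FPKM in untreated caMKK6 MEFs to 10.1, 9.96 and 10.4 at day 7, where it was not called. No difference was called for Trp53 (0.10 ± 0.10, limma adjusted p = 0.46) or Ckap2.

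**Figure D2:**
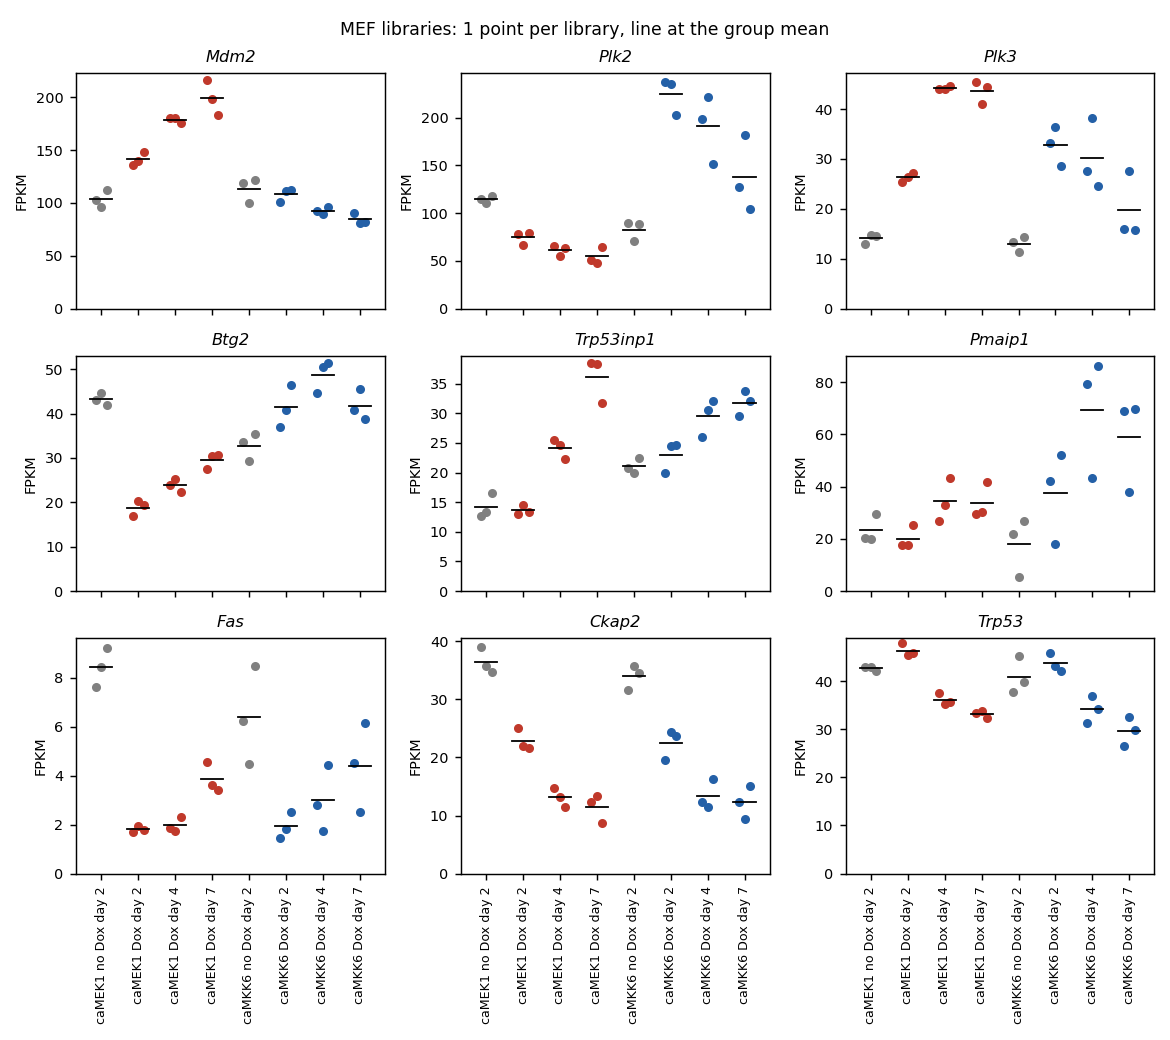
Level in FPKM of 9 genes in each MEF library (points) by group, with the group mean as a line; grey is untreated, red caMEK1 and blue caMKK6 with doxycycline. Mdm2 climbs to between 183 and 216 FPKM at day 7 of caMEK1 and lies between 80.6 and 90.2 at day 7 of caMKK6.

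Other genes of the pathway were read as lists, given by counts alone. Of 24 genes known to be lowered through p53, p21 and the DREAM complex, which are cell cycle genes, all 24 fell at days 4 and 7 under both kinases, beside 24% to 29.3% of all genes. At day 2, 8 fell under caMEK1, beside 19.8%, and 13 under caMKK6, beside 24.8%, and none rose. The day 7 median log2 change was -1.81 under caMEK1 and -1.36 under caMKK6. Rrm2, a ribonucleotide reductase subunit, stood at 19 ± 1.47 FPKM (SD, n = 3) at day 7 of caMEK1 against 130 ± 8.36 untreated (log2 change -2.71 ± 0.11 SE, limma adjusted p = 5.3e-14). Of 18 regulators of p53 that were tested, 8 were higher and 4 lower at day 7 of caMEK1, beside 33.4% and 28.7% of all genes, and 1 was higher and 7 lower under caMKK6, beside 16.8% and 24%. Cdkn2a, which encodes p16 and the Mdm2 inhibitor Arf, stood at 255 ± 17.1 against 35.6 ± 6.99 FPKM (SD, n = 3) at day 7 of caMEK1 (log2 change 2.82 ± 0.14 SE, limma adjusted p = 2.7e-12). Under caMKK6 it was at 188 ± 24.9 against 64.2 ± 13.2 FPKM (1.55 ± 0.14, limma adjusted p = 1.4e-07). Chek1, a checkpoint kinase found also in the cell cycle list, fell under both, by -1.12 and -0.93. Of 29 further p53 targets tested, 12 were higher and 7 lower at day 7 of caMEK1, beside 33.4% and 28.7% of all genes. Under caMKK6, 6 were higher and 8 lower, beside 16.8% and 24%. The matrix protein gene Thbs1 stood at 186 ± 53 FPKM (SD, n = 3) against 1422 ± 67.6 at day 7 of caMEK1. Gadd45a, a growth arrest gene, stood at 44.7 ± 2.31 FPKM (SD, n = 3) against 8.6 ± 1.01 at day 7 of caMEK1. Cdkn1a, which encodes p21, was not called at day 7 of caMEK1 (188 ± 5.44 against 170 ± 9.41 FPKM, SD, n = 3; limma adjusted p = 0.10). At day 7 of caMKK6 it rose, to 219 ± 5.49 from 172 ± 5.37 FPKM (SD, n = 3; log2 change 0.35, limma adjusted p = 0.00099), and the difference between the kinases was not called (-0.21 ± 0.11, limma adjusted p = 0.13).

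**Figure D3:**
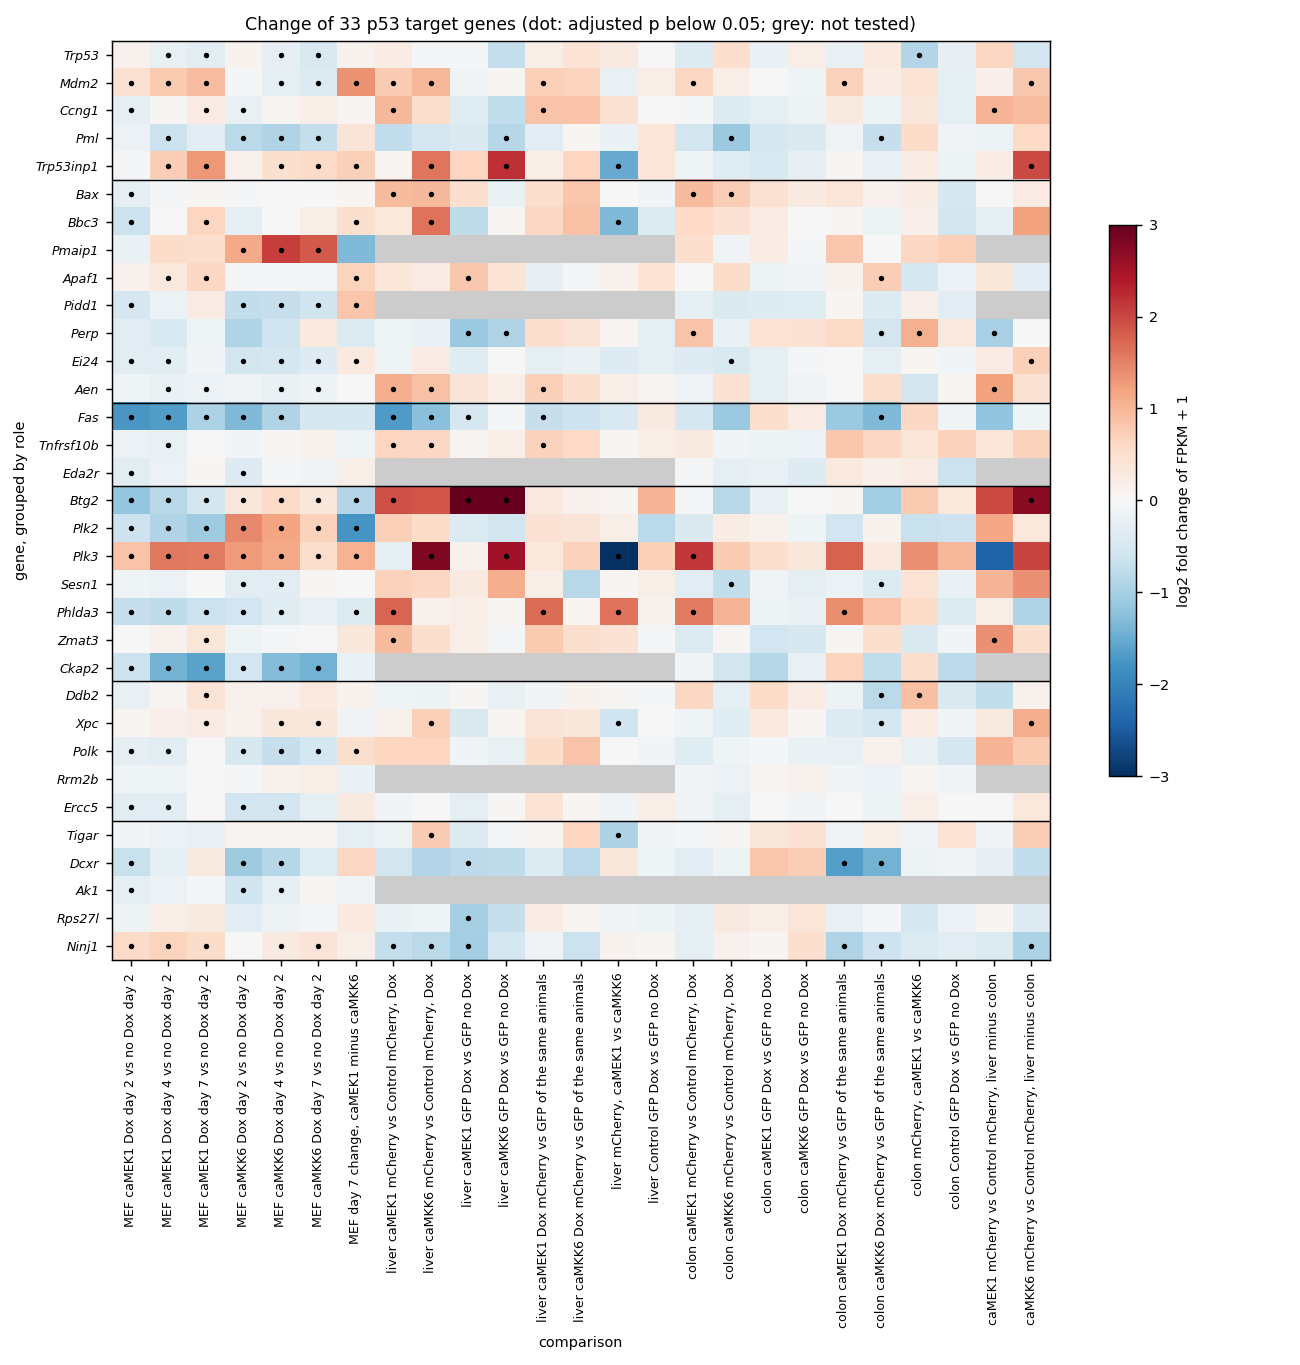
Log2 change of the 33 genes (rows) in the 25 comparisons (columns), from the limma fit, with colours capped at 3 in size, a dot where the call passed and grey where a gene was not tested. Fas is negative in each of its 10 calls, and Mdm2 is positive in 10 of its 12 calls.

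In liver, 27 of the 33 genes were tested among 10371, and Pmaip1, Pidd1, Eda2r (a receptor of ectodysplasin), Ckap2, Rrm2b and Ak1 were too low. Phlda3 passed the filter through the caMEK1 mCherry group alone, and Tnfrsf10b through single libraries of the 2 kinase mCherry groups, so their calls follow in part from the filter. In caMEK1 mCherry hepatocytes against Control mCherry hepatocytes, both with doxycycline, Mdm2, Ccng1, Bax, Aen, Zmat3 and Btg2 rose, and Fas and Ninj1 fell. With Phlda3 and Tnfrsf10b, which the filter admitted through such groups, these were 8 higher, beside 10.7% of all genes, and 2 lower, beside 16.3% (27.1% in either direction), with a median log2 change of 0.22 among the genes tested beside -0.04 over all. Without the second Control library 2 were higher and 1 lower, without the first 5 and 1, and without the second caMEK1 library 4 and 2. Hepatocyte markers summed to 66819 to 100876 FPKM in these caMEK1 libraries and to 39840 and 39846 in the Control ones, and cholangiocyte markers to 27.8 to 113 against 9.05 and 13.4 FPKM. Goblet cell markers summed to 187 to 244 against 2.51 and 2.87 FPKM, with 1 of 5 at 1 FPKM and Agr2 at 0, and neutrophil markers to 4.59 to 22.8 against 1.07 and 1.76. Erythroid markers went the other way, at 0.995 to 4.01 against 33.2 and 38.4 FPKM; the part of these lists was not tested.

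Phlda3 stood at 1.77, 8.04 and 1.02 FPKM (133 reads in the second library) against 0.207 and 0 in Control, and no other liver group exceeded 0.287 FPKM. Since it was tested only through the group where it is high, these levels are a description. Aen was at 2.34, 4.22 and 2.22 FPKM against 0.834 and 0.746, without overlap (log2 change 1.10 ± 0.19, limma adjusted p = 0.00049). Ccng1 was at 11.5, 16.7 and 8.67 FPKM against 6.27 and 4.97, and Mdm2 at 6.9, 11.6 and 5.29 against 4.49 and 3.57. Neither overlapped, yet both calls were lost without the second Control library (limma adjusted p = 0.12 and 0.13). Bax was at 4.9, 11.8 and 3.24 FPKM against 2.46 and 2.59 (log2 change 0.96 ± 0.31, limma adjusted p = 0.03). Btg2 was at 152, 237 and 120 FPKM against 35.7 and 49.2 (log2 change 1.93 ± 0.70, limma adjusted p = 0.048), and lost its call under 9 of the alternatives. The second caMEK1 library was highest for each of these 6 genes. Fas fell to 1.86, 2.15 and 2.88 FPKM from 9.11 and 10.1 (log2 change -1.69 ± 0.20, limma adjusted p = 1e-05), and Ninj1 to 27.8, 29.2 and 26.5 from 46.7 and 46.1. Trp53 was not called, at 4.17, 4.63 and 3.12 FPKM against 3.19 and 3.27. Among further p53 targets, Cdkn1a stood at 39 ± 26.4 FPKM (SD, n = 3) against 7.97 ± 0.717 (n = 2, limma adjusted p = 0.046). Of the 24 tested, 7 were higher, beside 10.7% of all genes, and 3 lower, beside 16.3%.

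In caMKK6 mCherry hepatocytes, compared with the same Control libraries, 9 rose, beside 28.9% of all genes, and 2 fell, beside 9.29% (38.2% in either direction). All genes together were shifted by 0.25 in median log2 change here, and the tested members by 0.53. With each library scaled to a common median, which moves values by -0.28, 3 were higher and 4 lower, and with quantile normalization 4 and 4. Without the first or the second Control library, 5 were higher and 1 lower, or 2 and 1. Plk3 stood at 236 and 92.9 FPKM against 28.5 and 14.6 (log2 change 2.80 ± 0.73, limma adjusted p = 0.0074), and lost its call without either the first caMKK6 library or the second Control one (adjusted p = 0.086 and 0.081). Bbc3 was at 6.55 and 4.93 FPKM against 1.25 and 1.04, and Trp53inp1 at 88.7 and 69 against 16.4 and 38.3. Both called rises were lost with median scaling (limma adjusted p = 0.068 and 0.16). Mdm2 was at 8.15 and 9.85 FPKM against 4.49 and 3.57 (log2 change 0.99 ± 0.23, limma adjusted p = 0.004), with no overlap. Aen was at 2.08 and 2.55 FPKM against 0.834 and 0.746 (log2 change 0.89 ± 0.21, limma adjusted p = 0.0047). Fas fell to 2.74 and 4.3 FPKM from 9.11 and 10.1 (log2 change -1.25 ± 0.22, limma adjusted p = 0.00059), as it did in caMEK1 cells. Bax, Tigar, Xpc and Tnfrsf10b completed the rises, with log2 changes of 0.61 to 0.97, and Ninj1 the falls; Tigar, an enzyme that lowers glycolysis, stood at 4.09 and 6.39 FPKM against 2.87 and 2.39. Cdkn1a stood at 32.3 ± 14.2 FPKM (SD, n = 2) against 7.97 ± 0.717 (n = 2) and was not called (limma adjusted p = 0.061). Of 24 further p53 targets tested, 8 were higher, beside 28.9% of all genes, and 3 lower, beside 9.29%. Of 15 regulators of p53 tested, 7 were higher and 0 lower, while 0 were called in caMEK1 mCherry cells. Summed hepatocyte markers stood at 26908 and 31315 FPKM in the caMKK6 libraries, below the Control ones. Macrophage markers summed to 68 and 153 FPKM against 19.3 and 29.3, and erythroid markers to 0.331 and 1.34 against 33.2 and 38.4; the part of these lists was not tested.

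The surrounding GFP hepatocytes were compared with GFP hepatocytes of untreated mice. In caMEK1 mice 2 rose, beside 6.46% of all genes, and 5 fell, beside 32.0% (38.5% in either direction). Btg2 rose from 3.53, 27.4 and 20.7 to 147, 168 and 96.1 FPKM, without overlap (log2 change 3.25 ± 0.63, limma adjusted p = 0.0008). Against GFP cells of Control mice on doxycycline, however, Btg2 was not called (adjusted p = 0.17). Perp fell from 42.5, 54.9 and 43.9 to 21.2, 17.6 and 25.4 FPKM, and Ninj1 from 64.7, 70.2 and 54.5 to 30.2, 32.3 and 28.2. Both lost their call under quantile normalization (limma adjusted p = 0.21 and 0.24), and the split became 4 higher and 3 lower with median scaling and 2 and 0 with quantile normalization. Rps27l, a ribosomal protein paralog whose reads may be shared with its near-identical copy Rps27, fell from 93.7, 96.8 and 91.4 to 49.2, 52.5 and 38.9 FPKM. Dcxr and Fas completed the falls, and Apaf1 the rises, at 0.587, 1.06 and 2.53 FPKM against 0.248, 0.303 and 0.359. Apaf1 passed the filter in 4 liver libraries, and its call (limma adjusted p = 0.0068) was lost against GFP cells of Control mice on doxycycline (adjusted p = 0.33). Macrophage markers summed to 42.1 to 442 FPKM in these GFP libraries against 24.9 to 40.8 in the untreated ones, and endothelial markers to 19.3 to 148 against 16.5 to 31.1, and their part was not tested. In caMKK6 mice 3 rose, beside 5.21%, and 2 fell, beside 13.8% (19.0% in either direction), the falls being Perp and Pml. Btg2 reached 283 and 72.9 FPKM against 8.63, 16.4 and 13.5, Plk3 212 and 38.5 against 9.49, 19.8 and 17.2, and Trp53inp1 94.9 and 26 against 10.5, 13.8 and 7.24. The first of the 2 animals was highest each time, and without its GFP library none of the 5 calls remained, while without the second animal's 10 members were called and without the first or the second untreated library 3 were. With quantile normalization 3 were higher and 0 lower. In Control mice no tested member was called with doxycycline, beside 0.0482% higher and 0.0386% lower genes (0.0868% in either direction), with 1 member at an unadjusted p below 0.05. The comparison held 2 doxycycline libraries, both listing mCherry, against 3. The lack of calls therefore does not show that the drug changed no member.

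Between colours of the same animals, in caMEK1 livers 5 were higher in mCherry cells, beside 3.75% of all genes, and 1 was lower, beside 0.955% (4.71% in either direction). Aen, Mdm2 and Ccng1 were higher, as were Tnfrsf10b and Phlda3 (0.0507, 0.242 and 0.202 FPKM in GFP cells), whose calls follow in part from the filter. Fas was lower, at 1.86, 2.15 and 2.88 FPKM against 4.06, 3.74 and 5.19. Cdkn1a was not called between the colours (log2 difference 0.85 ± 0.61, limma adjusted p = 0.48). With the animal as a block the counts were 8 and 1, with Perp, Zmat3 and Ercc5 added (0.50, 0.78 and 0.41 on the log2 scale). Without the second mCherry library, 1 was higher and 0 lower, and without the first, 3 and 0. Leaving out the first, the second or the third GFP library gave 3 and 0, 1 and 1, or 2 and 0. In caMKK6 livers no member was called by limma, and none by limma voom on the recovered reads, beside 3.99% higher and 0.289% lower genes (4.28% in either direction), while 10 members had an unadjusted p below 0.05. With the animal as a block 7 were higher and 3 lower, among them Mdm2 (0.66 ± 0.17, limma adjusted p = 0.012) and Fas (-0.62 ± 0.14, adjusted p = 0.0059). With quantile normalization 0 were higher and 1 lower. Without the first mCherry library 5 were higher and 0 lower, and without the first or second GFP library 1 and 3, or 0 and 1. Between the 2 kinases' mCherry hepatocytes, 1 member was higher under caMEK1, beside 4.52%, and 5 were lower, beside 27.2% (31.7% in either direction). The higher one was Phlda3, which was tested only through the caMEK1 group, so its 1.77, 8.04 and 1.02 against 0.102 and 0.287 FPKM are a description. Plk3 was lower, at 13.5, 29.7 and 11 against 236 and 92.9 FPKM (log2 difference -3.09 ± 0.66, limma adjusted p = 0.0023), and the groups did not overlap. Cdkn1a was not called between the kinases (0.08 ± 0.68, limma adjusted p = 0.94). Median scaling gave 3 higher and 1 lower and quantile normalization 5 and 2, and without the first caMEK1 library 1 was higher and 2 were lower.

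**Figure D4:**
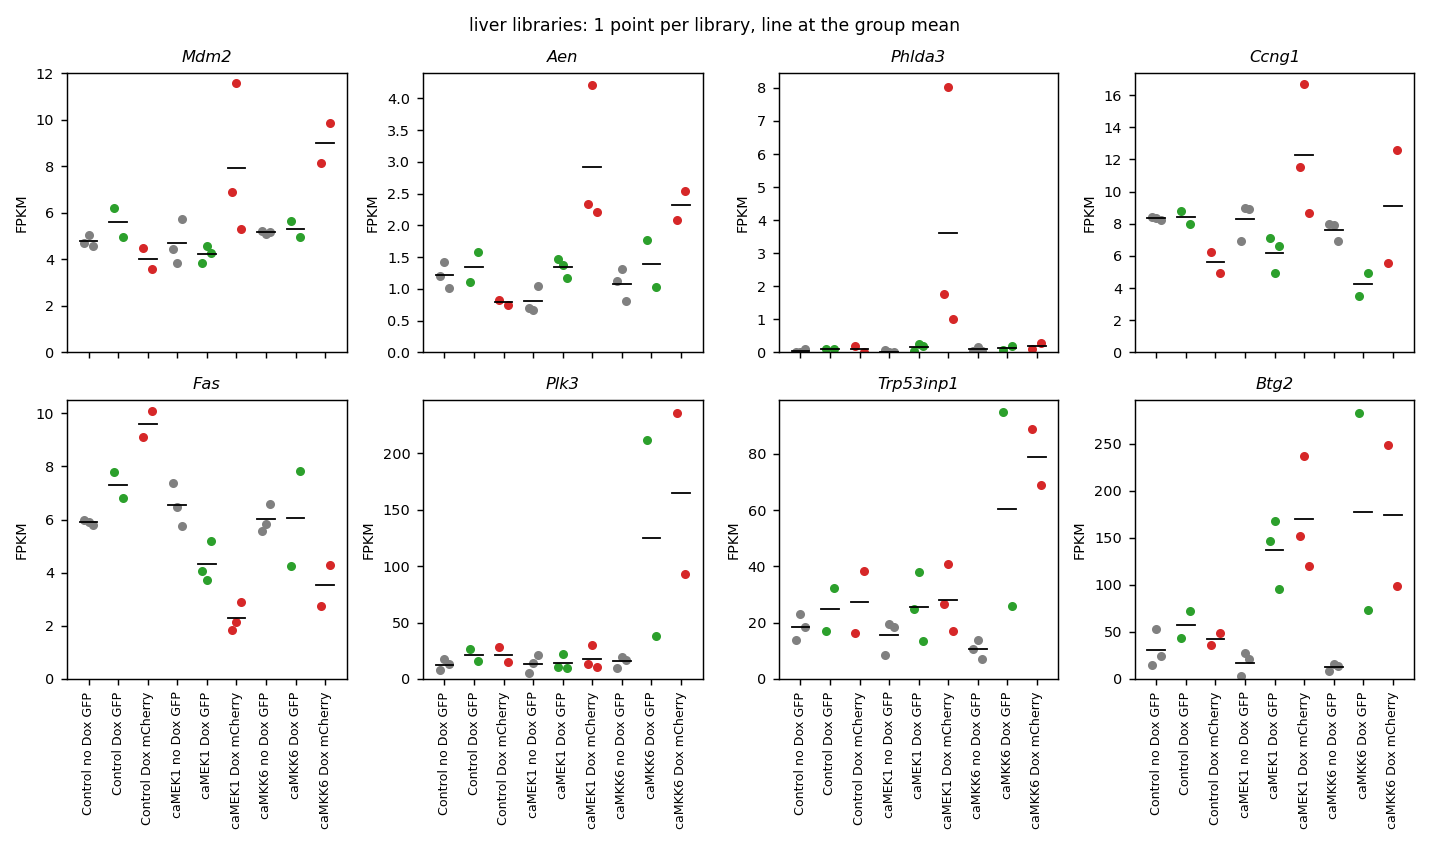
Level in FPKM of 8 genes in each liver library (points) with the group mean as a line; grey is untreated GFP, green GFP with doxycycline and red mCherry. Phlda3 exceeds 1 FPKM only in the caMEK1 mCherry libraries, and Plk3 reaches 236 FPKM in the first caMKK6 mCherry library.

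In colon epithelium 32 of the 33 genes were tested among 11542, Ak1 being too low. The mCherry cells of caMEK1 mice had higher Mdm2, Bax, Phlda3, Perp and Plk3 than Control mCherry cells and no lower member. These were 5 higher, beside 9.54% of all genes, and 0 lower, beside 12.0% (21.5% in either direction), at 2 libraries each. Perp was at 185 and 193 FPKM against 113 and 94.9 (log2 change 0.86 ± 0.21, limma adjusted p = 0.0064), Bax at 23.1 and 16.7 against 9.25 and 10 (0.95 ± 0.24, adjusted p = 0.0089) and Mdm2 at 10.8 and 14.3 against 8.65 and 7.03 (0.61 ± 0.16, adjusted p = 0.012). Phlda3 was at 5 and 3.1 FPKM against 0.313 and 1.14 (log2 change 1.57 ± 0.40, limma adjusted p = 0.0093). Plk3 was at 82.7 and 119 FPKM against 48.2 and 9.76 (log2 change 2.12 ± 0.71, limma adjusted p = 0.04). The caMEK1 and Control libraries did not overlap for any of these 5 genes. Without the second Control library or the second caMEK1 one, 2 were higher and 0 lower, and without the first caMEK1 library 2 and 1. Trp53 was not called, at 14.8 and 15.4 FPKM against 14.7 and 27.2. Cdkn1a stood at 172 ± 52.6 FPKM (SD, n = 2) against 45.7 ± 8.98 (n = 2, limma adjusted p = 0.0068). Of 24 further p53 targets tested, 10 were higher, beside 9.54% of all genes, and 3 lower, beside 12.0%. Goblet cell markers summed to 598 and 695 FPKM in the caMEK1 mCherry libraries and to 1943 and 4657 in the Control ones. Neutrophil markers summed to 590 and 1012 against 1.8 and 7.95 FPKM, with Ly6g the only one of the 5 at 1 FPKM throughout and Retnlg and Csf3r at 0 in every library of both groups; the part of either list was not tested.

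The caMKK6 mCherry cells showed 1 higher member, beside 11.1% of all genes, and 3 lower, beside 9.70% (20.8% in either direction), against the same Control mCherry libraries. With median scaling or quantile normalization 3 were higher and 3 lower, and without the first Control library or the third caMKK6 one 0 and 2. Bax was again higher, at 18.7, 14.3 and 17.4 FPKM against 9.25 and 10 (log2 change 0.73 ± 0.22, limma adjusted p = 0.023). Pml was lower, at 5.92, 3.76 and 3.66 FPKM against 9.43 and 12.1 (log2 change -1.12 ± 0.24, limma adjusted p = 0.0033), and Sesn1 was at 1.53, 2.19 and 1.82 against 3.93 and 3.57 (-0.74 ± 0.15, adjusted p = 0.0024). Ei24 went from 24.9 and 26.2 to 19.7, 16.7 and 18.8 FPKM (-0.46 ± 0.15, limma adjusted p = 0.035). The groups did not overlap for any of the 4. Cdkn1a was not called, at 44.8 ± 11.9 FPKM (SD, n = 3) against 45.7 ± 8.98 (n = 2, limma adjusted p = 0.95). Of 24 further p53 targets tested, 4 were higher, beside 11.1% of all genes, and 1 lower, beside 9.70%. Goblet cell markers summed to 5191 to 6292 FPKM in these caMKK6 libraries, above the Control ones, and neutrophil markers to 28 to 46.7; their part was not tested.

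GFP cells of the colon showed no called member with doxycycline, by limma on log2 FPKM or by limma voom on the recovered reads. In caMEK1 mice no member was called, beside 0.910% higher and 0.425% lower genes (1.33% in either direction), with 4 at an unadjusted p below 0.05. In caMKK6 mice none was called, beside 1.31% and 1.29% (2.60% together), with 5 at that level. In Control mice none was called, beside 0% of all genes in each direction, again with 5 at that level. Without the second Control doxycycline library 2 were higher and 3 lower in that comparison.

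Between colours of the same animals, caMEK1 mCherry cells had 2 higher members, beside 5.71% of all genes, and 2 lower, beside 7.72% (13.4% in either direction). Mdm2 was at 10.8 and 14.3 FPKM against 6.68 and 8.03 in GFP cells (log2 difference 0.69 ± 0.16, limma adjusted p = 0.0079), and Dcxr at 31.2 and 12.4 against 79.8 and 51.7 (-1.65 ± 0.40, adjusted p = 0.0098). Phlda3 (5 and 3.1 against 0.888 and 0.896 FPKM) was the other higher member and Ninj1 the other lower one. Added by the animal block were Perp, Tnfrsf10b and Plk3 as higher and Fas as lower, for counts of 5 and 3. Without the second mCherry or the first GFP library no member was called, and without the second GFP library 1 was higher and 1 lower. In caMKK6 animals 1 was higher, beside 8.24%, and 8 were lower, beside 13.1% (21.3% in either direction), becoming 4 and 12 with the animal as a block. Without the second or the third mCherry library 0 were higher and 2 lower, and without the first or second GFP library 0 and 5, or 1 and 4. The lower ones were Dcxr, Fas, Ddb2, Pml, Ninj1, Perp, Xpc and Sesn1. Dcxr was at 30.4, 23.1 and 15.5 FPKM against 72.3, 67.4 and 47.1 (log2 difference -1.42 ± 0.33, limma adjusted p = 0.0053). Fas was at 1.01, 0.405 and 0.29 FPKM against 4.45, 2.82 and 1.79 (-1.33 ± 0.36, limma adjusted p = 0.014). Apaf1 was higher, at 7.05, 9.86 and 10.6 FPKM against 3.53, 5.66 and 6.11, with no overlap (0.74 ± 0.20, limma adjusted p = 0.014). EGFP ranged from 3.36 to 179 FPKM in the caMKK6 mCherry libraries and from 619 to 912 in the GFP ones. With quantile normalization 2 were higher and 7 lower. Between the mCherry cells of the 2 kinases, 2 members were higher under caMEK1, beside 8.56%, and 1 was lower, beside 12.1% (20.7% in either direction). Perp was the most different, at 185 and 193 against 101, 84.3 and 83.9 FPKM (log2 difference 1.07 ± 0.19, limma adjusted p = 0.00059). Trp53 was lower under caMEK1, at 14.8 and 15.4 against 29.1, 27.3 and 30.4 FPKM, with no overlap (-0.89 ± 0.25, limma adjusted p = 0.017). Median scaling gave 5 higher and 1 lower.

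**Figure D5:**
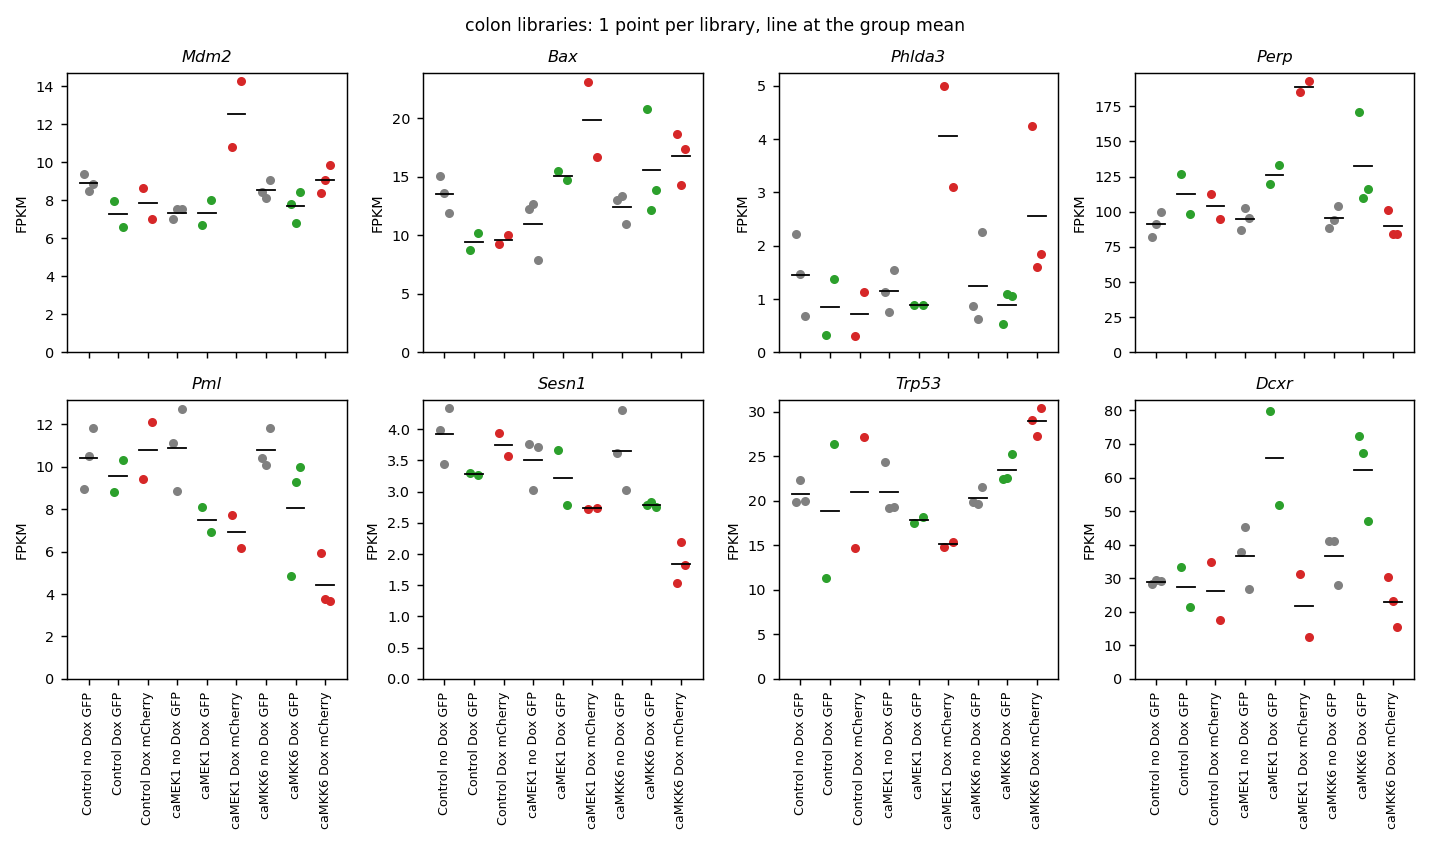
Level in FPKM of 8 genes in each colon library (points) with the group mean as a line; grey is untreated GFP, green GFP with doxycycline and red mCherry. Perp stands at 185 and 193 FPKM in the caMEK1 mCherry libraries, above all other groups.

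The kinase effect was then set against Control mCherry in liver minus the same in colon, with 9238 genes tested in both tissues. Under caMEK1, the signed change was higher in liver for Zmat3, Aen and Ccng1, beside 7.80% of all genes. It was lower there for Perp, beside 7.46% (15.3% in either direction). Aen differed by 1.21 ± 0.34 on the log2 scale (limma adjusted p = 0.013), and Zmat3, an RNA-binding growth regulator, by 1.36 ± 0.40 (adjusted p = 0.02). Without the second liver Control library none of these 4 calls held. Without the first liver Control, the second liver caMEK1 or the second colon caMEK1 library 1 was higher and 0 lower. Median scaling gave 3 higher and 2 lower. Under caMKK6, the signed change was higher in liver for Btg2, Trp53inp1, Xpc, Mdm2 and Ei24, beside 18.8%. It was lower there for Ninj1, beside 4.69% (23.5% in either direction). Ninj1 was called as a fall in liver and not called in colon. Ei24 was called as a fall in colon and not called in liver. All genes were shifted by 0.30 in median here. With median scaling no member was higher and 1 was lower, and with quantile normalization 2 and 1. Without the first liver Control library 2 were higher and 0 lower, and without the second liver Control or the first colon Control one 1 and 0. Ninj1 differed by -0.94 ± 0.31 (limma adjusted p = 0.028). Across the 22 comparisons made within a tissue and outside the kinase difference at day 7, Mdm2, Fas, Plk3, Phlda3 and Ninj1 were each called in 10, and Rrm2b, a ribonucleotide reductase subunit, in none. The Phlda3 count includes its liver calls, which follow in part from the filter, since it was tested there only through the caMEK1 mCherry group.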

How the data were processed

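Messenger RNA was sequenced in bulk, and the authors deposited 1 table of FPKM values for 70 libraries, with 21863 entries (21859 genes and 4 reporters or transgenes). Per the submitters' processing notes, reads were trimmed with cutadapt 1.12 and aligned to mm10 with STAR 2; the counting tool and its annotation are not given in the sources used here. For the 21191 genes matched to GENCODE release M21, values below 1000 reads were whole multiples of 1 read within 0.02 of a read, which gave the depth per library and reads for an alternative test.

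The 33 members and the gene lists (20 regulators, 33 other targets and 24 genes lowered through p53, p21 and DREAM) were chosen from general knowledge with earlier results of these data known. Groups were taken from the labels. Log2(FPKM + 1) was fitted with limma 3.58.1 (lmFit, eBayes with a trend) in R 4.3.3, in 1 fit per tissue and 1 fit of liver and colon together. That scale understates the change of low genes. The genes kept reached 1 FPKM in no fewer than 3 libraries of MEFs, or 2 libraries of liver or of colon: 11347, 10371, 11542 and 9238 in turn, with 16, 14, 14 and 28 residual degrees of freedom. Calls were two-sided at a Benjamini-Hochberg adjusted p below 0.05 over all genes kept, and none was adjusted across the 25 comparisons. The fit was also run on simulated data, in which libraries varied independently. That run does not test libraries that deviate together, and no result here rests on it. Summaries used pandas 2.3.3 and numpy 2.4.6 under Python 3.11.15, and plots matplotlib 3.10.9.

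In each comparison up to 5 called members with the largest rise and 5 with the largest fall, whose higher group averaged at least 2 FPKM, have values per library; Trp53, Mdm2, Ccng1 and Phlda3 may be given anywhere, and other values were chosen after they were seen. Lists are given as counts with up to 3 called genes, and Cdkn1a may be given anywhere. Up to 4 promoters with the best matches are printed for members called in at least 3 comparisons, ties being settled after the values were seen.

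Same-numbered MEF libraries deviated together within each genotype, with correlations of 0.254 to 0.761 in caMEK1 and 0.112 to 0.803 in caMKK6 (18 of 18 pairs each over 0.1), but across genotypes only 2 of 12 pairs did. The animal number pairs both colours of a mouse in the labels, with correlations of 0.462 to 0.817 in liver and 0.396 to 0.707 in colon. Alternatives were a pseudocount of 0.1, no filter, median scaling, quantile normalization, a replicate block, another comparator, limma voom on the recovered reads and each library left out in turn. Leaving out MEF libraries with the other transgene, leaving out caMEK1 liver animal 17 and the block within genotype were chosen after seeing the data. All 70 libraries entered the main fits.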

Additional observations from a re-analysis of the deposited data

Results flagged for a closer look

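A tested difference between the kinases or between the tissues marked each of the following members for a closer look. In MEFs the day 7 change of caMEK1 minus that of caMKK6 was positive for Mdm2 (1.35 on the log2 scale), Plk3 (1.04), Pidd1 (0.84), Trp53inp1 (0.72), Apaf1 (0.66), Polk (0.52), Bbc3 (0.47) and Ei24 (0.29). It was negative for Plk2 (-1.76), Btg2 (-0.88) and Phlda3 (-0.41). The calls of Bbc3, Ei24 and Phlda3 were lost under some alternatives: Bbc3 with median scaling (0.34, limma adjusted p = 0.094), Ei24 with median scaling (0.16, adjusted p = 0.2) and Phlda3 with quantile normalization (-0.34, adjusted p = 0.085). In mCherry cells against Control mCherry cells, the caMEK1 change in liver exceeded that in colon for Zmat3 (1.36), Aen (1.21) and Ccng1 (1.03) and was below it for Perp (-0.98). The caMKK6 change in liver exceeded that in colon for Btg2 (2.71), Trp53inp1 (1.97), Xpc (1.08), Mdm2 (0.80) and Ei24 (0.71) and was below it for Ninj1 (-0.94). Each of these differences between tissues lost its call without at least 1 single library. These were called by limma on log2(FPKM + 1) at a Benjamini-Hochberg adjusted p below 0.05.

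The reporter rows, which enter no comparison of members, held a signal above its controls. mCherry stood at 678 and 750 FPKM in the liver Control GFP libraries with doxycycline, against 0 to 0.112 in those without and 3985 to 4727 in the Control mCherry libraries.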

How the results depend on the processing

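Of 196 called results of members, 92 kept their call in every alternative run for them, and no called result changed sign. Calls lost numbered 6 with a pseudocount of 0.1, 19 with no filter, 32 with median scaling, 31 with quantile normalization and 33 of 188 with voom on the recovered reads. Uncalled Trp53 in caMKK6 mCherry hepatocytes against Control went from -0.94 to 0.87 on the log2 scale as single libraries were left out, since those 2 caMKK6 libraries held 1.2 and 6.73 FPKM. With the replicate block, the members called numbered 10 (against 0) between colours in caMKK6 liver, 8 (against 4) in caMEK1 colon and 16 (against 9) in caMKK6 colon. With the block within genotype, 17 (against 11) were called in the MEF day 7 difference. The block lost 3 of the 196 calls, Tnfrsf10b in caMEK1 MEFs at day 4 (0.055), Xpc between the kinases in liver (0.071) and Ccng1 in caMEK1 between tissues (0.065). Median scaling gave 7 (against 11) for caMKK6 mCherry liver, 6 (against 3) between the kinases in colon and 1 (against 6) for caMKK6 between tissues. Quantile normalization gave 2 (against 7) for caMEK1 GFP liver, 3 (against 5) for caMKK6 GFP liver, 1 (against 0) between colours in caMKK6 liver and 3 (against 6) for caMKK6 between tissues. Voom gave 6 for caMKK6 mCherry liver, 3 for caMKK6 GFP liver, 5 between colours in caMKK6 colon, 5 between the kinases in colon and 1 for caMKK6 between tissues. The other comparator gave 4 for caMEK1 GFP liver, 1 for caMKK6 GFP liver and 7 (against 4) for caMKK6 mCherry colon. Without the MEF libraries that list the other transgene, 13 (against 21) were called at day 4 of caMKK6. Leaving out single libraries gave, for liver, 3 to 8 for caMEK1 and 3 to 10 for caMKK6 mCherry against Control, 0 to 10 for caMKK6 GFP, 1 to 8 and 0 to 5 between colours of caMEK1 and caMKK6, and 3 to 7 between kinases. For colon it gave 2 to 6 for each kinase's mCherry against Control, 0 to 3 and 2 to 8 between colours, and 0 to 5 for Control GFP. Between tissues it gave 0 to 4 for caMEK1 and 1 to 9 for caMKK6. For these shifts the cause was not tested. In groups of 2, the lone library left was assumed to vary like the other groups. Low liver levels limit what can be seen there, as 6 of the 33 members were not tested.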
